A study of Danio rerio with 6 samples.

Results

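A set of 757 genomic regions bound by Eomesa was examined for Smad2 signal that had not been called as a Smad2 peak. The regions were drawn from the 6378 Eomesa peaks mapped in zebrafish blastulas by chromatin immunoprecipitation and sequencing (ChIP-seq). Of these peaks, 6019 shared no base with a Smad2 peak and are called lone, and 359 shared at least 1 base and are called common. A lone peak was included when the Smad2 track reached 13 tags or more inside its interval and the Eomesa track stayed below 44 tags. The Smad2 minimum was passed by 13.2% of the 5751 lone peaks below 44 Eomesa tags and by 19.4% of all Eomesa peaks. The regions were chosen by their measured Smad2 and Eomesa heights, so these heights are given as a description, and no region or value was tested.

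All embryos were of the AB strain, unmanipulated and formaldehyde-fixed at high-sphere stage. The 2 factors differed in the antibody, and input had none. The tag length of the tracks also differed, as given below. Smad2 chromatin was precipitated with a rabbit monoclonal antibody and Eomesa chromatin with a polyclonal antibody against the whole zebrafish protein. Input was whole chromatin that had not been precipitated. Each of the 3 groups had 2 reactions, but the data hold 1 track per group and 1 peak list per factor, so no error between reactions can be given. As whole embryos were used, strong binding in a small share of cells and weak binding in many cells cannot be told apart.

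Nodal ligands signal through receptor kinases that phosphorylate Smad2, which then enters the nucleus with Smad4 and binds DNA together with partner transcription factors. Foxh1, a forkhead protein, is a well-known partner. Eomesa is a zebrafish homologue of Eomesodermin, a maternally supplied T-box factor that acts with Nodal signalling in the induction of endoderm and mesoderm. A region on which Eomesa was called and Smad2 was not is thus of interest where the Smad2 track is raised and the input track is not.

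The study listed a best Foxh1 site for some Eomesa peaks. Its annotation was used here only for the first 1998 peaks of the list, which lay on chromosomes 1 and 10 to 17. Among them were 244 of the 757 regions. A listed site was present in 90 of these 244 regions (36.9%, 95% Wilson interval 31.1 to 43.1%), in 301 of 1559 lone peaks that stayed below both 13 Smad2 and 44 Eomesa tags (19.3%), in 72 of 123 common peaks (58.5%) and in 492 of all 1998 peaks (24.6%). Wider regions held a site more often. Among peaks of 450 bp or more, the share was 47.7% of 88 regions, 42.4% of 132 lower lone peaks and 64.4% of 59 common peaks, with 95% Wilson intervals of 37.6 to 58.0%, 34.3 to 51.0% and 51.7 to 75.4%. The intervals of the regions and the lower lone peaks overlapped at this width. Below 250 bp the share was 21.4% of 28 regions, 10.9% of 825 lower lone peaks and 23.8% of 21 common peaks. At 250 to 349 bp it was 32.3% of 62, 24.4% of 393 and 66.7% of 15, in the same order. At 350 to 449 bp it was 33.3% of 66, 28.2% of 209 and 67.9% of 28. In each band the share was higher in the regions than in the lower lone peaks. The 95% Wilson intervals of the regions and the lower lone peaks overlapped in every band. These shares therefore do not establish a difference at like width.

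The sites shown are those of the 6 regions with the highest Smad2-to-input ratio among those with a listed site. A high ratio can come from low input, as at Eomesa_peak26, with 15 Smad2 and 2 input tags. The sites are 11 bases long, with the letters as listed. Their case was set here, and capitals mark a match to AATNCAC on either strand. The position and strand of a site within its region were not given.
Eomesa_peak110: cagAATACACa
Eomesa_peak26: ctaaataaact
Eomesa_peak1817: gccAATTCACa
Eomesa_peak238: gtgAATCCACa
Eomesa_peak1563: tacAATACACa
Eomesa_peak771: cccaatcaaca
The match was found in 4 of these 6 sites. The unmarked sites were also listed by the study as Foxh1 sites, so the lack of a match does not mean the lack of a site. Over all 90 sites of the regions it was found in 50 (55.6%), beside 245 of the 492 sites of all annotated peaks (49.8%). Eomesa_peak110 lay at chr1:25240551-25240914 (Zv9), Eomesa_peak26 at chr1:8455015-8455531, Eomesa_peak1817 at chr16:44280381-44280663, Eomesa_peak238 at chr1:51393659-51393877, Eomesa_peak1563 at chr15:29119604-29120047 and Eomesa_peak771 at chr12:14835718-14836066. A match describes the letters of the listed site and does not show binding.

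The Smad2 track held an estimated 12.6 M tags, the Eomesa track 12.3 M and the input track 19 M (M, mega). A track value is the number of tags covering a position. A tag spanned 132 bp for both Smad2 and input but 38.9 bp for Eomesa, so that only Smad2 and input were set against each other. A count of 13 tags has an exact 95% counting interval of 6.92 to 22.2 tags. The Smad2 track reached 13 tags at 0.0837% of positions in the genome, and the deeper input track did so at 1.15%.

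The Smad2 signal of the 757 regions was modest and lay mostly close to the minimum. The Smad2 height, the highest value in the interval, ranged over 13 to 48 tags with a median of 16 and quartiles of 14 and 19. The Eomesa height ranged over 4 to 43 tags with a median of 20 (quartiles 14 and 28), and the input height over 1 to 53 tags with a median of 11 (quartiles 8 and 16). There was no gap at either threshold. Just inside the Smad2 minimum were 157 regions at 13 tags, with a median input of 10 tags, and just outside were 212 lone peaks at 12 tags, also with a median input of 10. At the Eomesa limit, 7 regions had 43 tags, and 9 lone peaks with 13 or more Smad2 tags had 44.

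**Figure D1:**
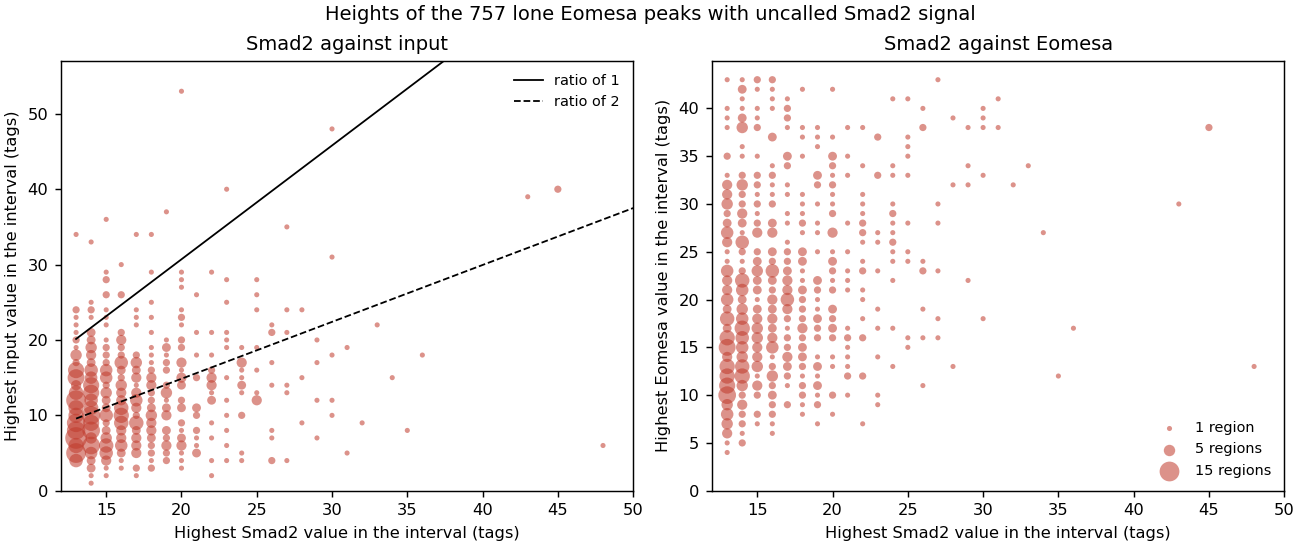
Highest Smad2 value (horizontal axes, tags) of each of the 757 regions against its highest input value (left) and highest Eomesa value (right), in tags. The area of a point stands for the number of regions at that pair of values, and the lines mark a Smad2-to-input ratio of 1 (solid) and of 2 (dashed). Most regions have 13 to 19 Smad2 tags, 28 regions have a ratio below 1, and the 3 regions of 43 or 45 Smad2 tags have 39 or 40 input tags.

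The plot of heights shows that regions with similar Smad2 heights differed widely in input. To take the depth of the tracks into account, 1 tag was added to each height, each track was divided by its summed signal, and the ratio of Smad2 to input was formed. The ratio of the 757 regions ranged over 0.587 to 11.6, with a median of 2.11 (quartiles 1.51 and 3.02, 95% order-statistic interval of the median 2.06 to 2.21). A ratio of 2 or more was reached by 427 regions (56.4%, 95% Wilson interval 52.9 to 59.9%), beside 32.1% of all Eomesa peaks. A ratio of 4 or more was reached by 87 regions (11.5%), beside 7.04% of all Eomesa peaks and 48.2% of the common peaks. At 28 regions (3.70%) the ratio was below 1, beside 23.6% of all Eomesa peaks, and at these regions the name of Smad2 signal is not borne out by the tracks. Since the regions were chosen for a high Smad2 value, a higher ratio than in all peaks follows in part from the rule.

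Against other classes of peak, the regions took a middle place in the ratio. Their median input was above that of all the other classes except the lone peaks of 44 Eomesa tags or more. The median ratio was 2.11 in the regions, against 3.88 in the 359 common peaks, 3.02 in the 309 lone Smad2 peaks of 13 tags or more, 1.51 in the 268 lone Eomesa peaks of 44 Eomesa tags or more and 1.32 in the 4994 lower lone peaks. Of the 268 peaks of 44 Eomesa tags or more, which needed no Smad2 minimum, the 145 that also reached 13 Smad2 tags had a median ratio of 2.01, close to that of the regions. The share with a ratio of 2 or more was 56.4% in the regions, against 93.3% in the common and 23.9% in the lower lone peaks. The median input height was 11 tags in the regions, against 14 in the lone peaks of 44 Eomesa tags or more, 9 in the common peaks, 8 in the lone Smad2 peaks and 7 in the lower lone peaks. An input height of 13 tags or more occurred at 325 regions (42.9%, Wilson interval 39.5 to 46.5%), beside 19% of all Eomesa peaks. It occurred at 59.7% of the lone peaks of 44 Eomesa tags or more, 24.2% of the common and 12.8% of the lower lone peaks. The mean track value was 1.78 tags for input and 1.18 for Smad2. For its depth, 13 input tags is thus a lower level than the 13 tags set for Smad2. An input height of 20 tags or more occurred at 85 regions (11.2%). Input tags outnumbered Smad2 tags at 151 regions (19.9%), beside 46.6% of all Eomesa peaks, without correction for the deeper input track. That lower share goes with the Smad2 minimum set by the rule.

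**Figure D2:**
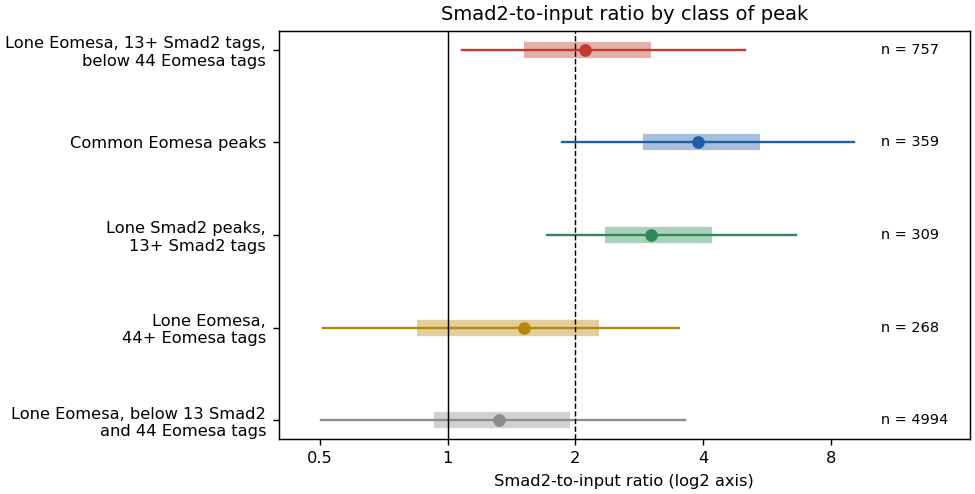
Smad2-to-input ratio (horizontal log2 axis) of the 757 regions and of 4 other classes of peak. Points are medians, thick bars quartiles and thin lines the 5th to 95th percentiles over peaks, and vertical lines mark ratios of 1 (solid) and 2 (dashed). The median of the regions (2.11) lies below that of the common peaks (3.88) and of the lone Smad2 peaks (3.02) and above both other classes of lone Eomesa peak (1.51 and 1.32), which were not required to reach 13 Smad2 tags.

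The comparison was repeated within bands of Smad2 height, so that called and uncalled peaks of like Smad2 signal stood side by side. At 13 to 15 Smad2 tags, the median input height was 10 tags in 373 regions (95% interval 10 to 11), against 6 in 41 common peaks (5 to 7) and 7 in 116 lone Smad2 peaks (7 to 8). At 16 to 19 tags it was 11 in 229 regions (10 to 12), against 7 in 58 common peaks (6 to 8) and 8 in 83 lone Smad2 peaks (7 to 9). Input was thus higher at the uncalled regions in both bands, and the intervals did not overlap with those of the called peaks. At 20 to 25 tags the median input was 14 in 117 regions (12 to 15), against 8 in 67 common peaks (7 to 9) and 11 in 58 lone Smad2 peaks (9 to 12), where the interval met that of the lone Smad2 peaks. At 26 tags or more it was 16 in 38 regions (12 to 21), against 11 in 170 common peaks (10 to 12) and 11 in 52 lone Smad2 peaks (10 to 14), and the intervals of the regions and of both called classes met or overlapped. The authors called Smad2 peaks against input, so lower input at called peaks is not independent of the call.

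**Figure D3:**
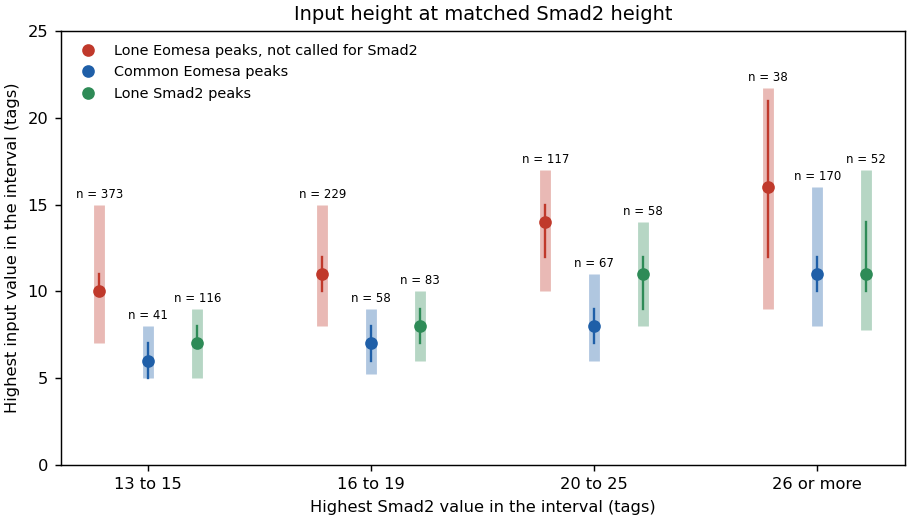
Highest input value (vertical axis, tags) by band of highest Smad2 value (horizontal axis, tags) in lone Eomesa peaks without a Smad2 call, common Eomesa peaks and lone Smad2 peaks. Points are medians, thick bars quartiles and thin lines 95% order-statistic intervals of the median. In each band the median input of the uncalled regions (10, 11, 14 and 16 tags) is the highest of the 3 classes.

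Smad2 height is the numerator of the ratio, so the ratio within bands of Smad2 height is given as a description. The median ratio was 1.92, 2.26, 2.31 and 2.73 in the bands from the lowest to the highest Smad2 height, and the share with a ratio of 2 or more was 48.8, 61.1, 67.5 and 68.4%. Common peaks had median ratios of 3.24, 3.35, 3.93 and 4.83 in the same bands. Across the 757 regions Spearman's rho was 0.18 between Smad2 and input height, 0.26 between Smad2 and Eomesa height and 0.20 between Smad2 height and width. Over all 6378 Eomesa peaks the same values were 0.52, 0.43 and 0.57. These are descriptions across sites that share the same libraries, and the range of the regions was cut at 13 Smad2 tags.

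Sorting the regions by input instead, in bands chosen after the values were seen, separated a part with little input from a part in which input matched Smad2. Input stayed at 6 tags or fewer in 137 regions (18.1%), which had a median of 15 Smad2 tags and a median ratio of 4.10. It was 7 to 12 tags in 295 regions (median ratio 2.42), 13 to 19 tags in 240 regions (1.55) and 20 tags or more in 85 regions (1.13). The last group had a median of 18 Smad2 tags and 27 Eomesa tags and the widest intervals, with a median of 465 bp against 337 bp in the first. Input is the denominator of the ratio, and the rule set a minimum for Smad2. The fall of the ratio over these bands therefore follows in large part from how they were formed.

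The Smad2 signal was centred on the Eomesa summit. Averaged over the 757 regions, the Smad2 track was 10.3 times its genome-wide mean at the Eomesa summit and 1.31 times at 1 to 2 kb from it, and the input track was 4.60 and 1.13 times its mean at the same places. In the lower lone peaks, Smad2 was at 3.50 and input at 2.83 times their means at the summit. In the common peaks, Smad2 was at 18.5 and input at 3.82 times their means. Input was therefore raised at the summits of all 3 classes, and the excess of Smad2 over input was larger in the regions than in the lower lone peaks and smaller than in the common peaks. As 13 Smad2 tags divided the regions from the lower lone peaks, that part of the difference was set by the rule. The Eomesa track reached 60.5 times its mean in the regions, against 80.2 times in the common and 41.1 times in the lower lone peaks.

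**Figure D4:**
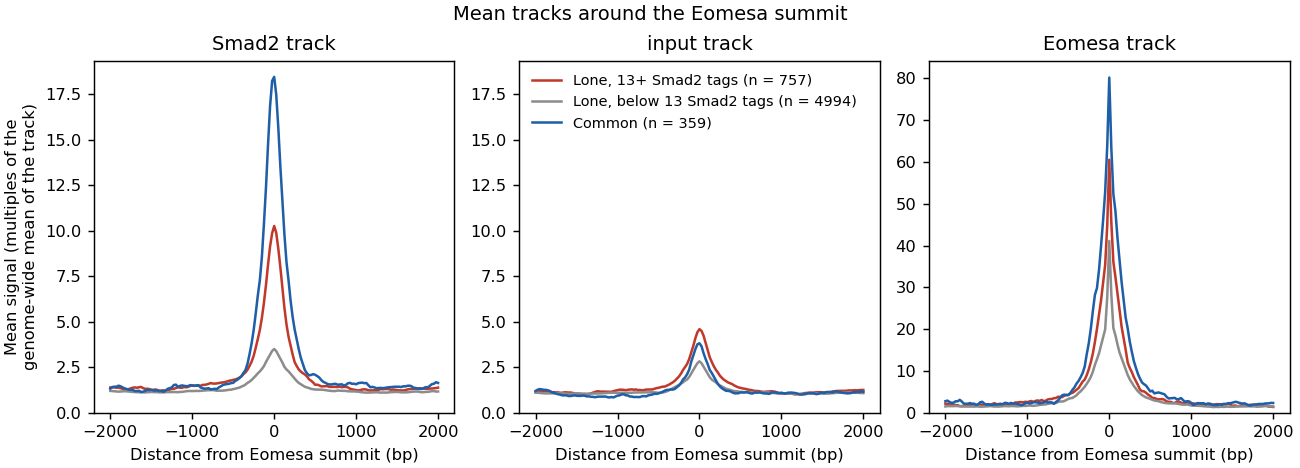
Mean Smad2, input and Eomesa tracks, as multiples of the genome-wide mean of each track (vertical axes), against distance from the Eomesa summit in bp, for the 757 regions, the 4994 lower lone peaks and the 359 common peaks. At the summit of the regions Smad2 reaches 10.3 and input 4.60 times the mean. The Eomesa panel has its own scale.

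In single regions the Smad2 summit lay a median of 50 bp from the Eomesa summit (95% interval 45 to 55 bp), against 45 bp in the common peaks and 45 bp in the lower lone peaks. The summits were within 50 bp of each other in 381 regions (50.3%) and within 100 bp in 584 (77.1%), beside 53.9 and 78.8% of all Eomesa peaks, so these shares did not set the regions apart. The distance cannot exceed the width of the interval, and the regions were wider. As a percentage of width its median was 13.7% in the regions, 20.2% in all Eomesa peaks, 23.0% in the lower lone peaks and 12.3% in the common peaks. The Smad2 summit lay a median of 45 bp from the input summit as well, so that the position did not set Smad2 apart from input. The highest Smad2 value was at the edge of the interval in 33 regions (4.36%), against 35.4% of the lower lone peaks. A higher Smad2 value within 500 bp outside the interval was present at 46 regions (6.08%), against 44.5% of the lower lone peaks. The lower lone peaks were narrower and had a low Smad2 maximum by definition, which favours a higher value at or beyond their edges, so these contrasts follow in part from the rule.

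The regions were wide for Eomesa peaks. Their median width was 377 bp (quartiles 285 and 485 bp), against 435 bp in the common peaks and 234 bp in the lower lone peaks. Among lone peaks below 44 Eomesa tags, the regions made up 0.805% of those below 100 bp, 18.8% of those of 300 to 399 bp and 42.2% of those of 500 bp or more. A wider interval offers more positions at which 13 tags can be reached, so width is not independent of the rule.

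The 5 regions of highest Smad2 height fell into different kinds. Eomesa_peak4926 (chromosome 5, 52657136 to 52657382, Zv9) had 48 Smad2 tags, 13 Eomesa tags and 6 input tags, the highest Smad2 value among the regions, and lay far from any Smad2 peak. Its ratio was 10.6. The ratio without the added tag, still divided by the summed signal of each track, is called the bare ratio. It was 12.1 here, with an exact 95% counting interval of 5.16 to 34.5. Eomesa_peak4597 and Eomesa_peak4599 on chromosome 4 each had 45 Smad2, 38 Eomesa and 40 input tags, a ratio of 1.69 and a bare ratio of 1.70 with a counting interval of 1.08 to 2.67. Eomesa_peak6085 on chromosome 9 had 43 Smad2, 30 Eomesa and 39 input tags and a ratio of 1.66. At these 3 regions input was nearly as tall as Smad2 in tags. The fifth, Eomesa_peak3028, is described with the lft1 gene. Heights are the largest values of an interval, so the counting intervals are approximate and cover counting error only.

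The highest ratios came mostly from low input. Eomesa_peak5615 had 22 Smad2, 23 Eomesa and 2 input tags, a ratio of 11.6. Eomesa_peak4003, a 128 bp region on chromosome 25, had 14 Smad2, 12 Eomesa and 1 input tag, a ratio of 11.3, with a counting interval of the bare ratio of 3.22 to 894. The width of that interval shows how little the size of a ratio is fixed by 1 input tag. Eomesa_peak3156 on chromosome 21 had 17 Smad2, 24 Eomesa and 2 input tags (ratio 9.06), and 2 further regions lay within 10 kb of it. Eomesa_peak110, which carries the first of the Foxh1 sites shown above, had 27 Smad2, 18 Eomesa and 4 input tags (ratio 8.45, bare ratio 10.2 with a counting interval of 3.55 to 40.1). The counting intervals given here lay above 2. As the regions were picked for the highest ratios, that follows in part from the choice and is no test.

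The highest input was found at Eomesa_peak1406 (chromosome 14, 53015108 to 53016194), a region of 1087 bp with 20 Smad2, 37 Eomesa and 53 input tags. Its ratio of 0.587 was the lowest of the 757 regions, and the counting interval of the bare ratio, 0.323 to 0.969, lay below 1. Eomesa_peak6247, on the unplaced sequence Zv9_NA343, followed with 30 Smad2, 38 Eomesa and 48 input tags and a ratio of 0.955. Smad2 was not raised over input at either region.

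Smad2 peaks lay near some of the regions. A Smad2 peak was found within 10 kb of 95 regions (12.5%, Wilson interval 10.4 to 15.1%), beside 5.17% of all lone Eomesa peaks and 3.96% of the lower lone peaks. It was within 500 bp of 15 regions and within 100 kb of 185 (24.4%). The share within 10 kb was 20.4% of the 137 regions with at most 6 input tags. It was 11.5% of the 295 with 7 to 12 tags, 10% of the 240 with 13 to 19 and 10.6% of the 85 with 20 or more. From 7 input tags up it thus differed little. The 95 regions near a Smad2 peak had a median of 18 Smad2 and 10 input tags and a median ratio of 2.68 (95% interval 2.42 to 3.02), against 15 and 12 tags and 2.09 (1.98 to 2.14) in the other 662. A ratio of 2 or more was reached by 71 of the 95 (74.7%) and by 356 of the 662 (53.8%). The share within 10 kb was 10.9% at a minimum of 11 Smad2 tags and 24.5% at 20, so it goes with the minimum set by the rule. The lower lone peaks lie below that minimum by definition, so the contrast with them follows in part from the rule. Smad2 height was used by the rule and enters the ratio, so the values of the 95 and the 662 are a description.

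The regions nearest to a Smad2 peak were Eomesa_peak5397, at 46 bp, with 26 Smad2, 11 Eomesa and 4 input tags, Eomesa_peak3761, at 79 bp, with 20, 18 and 12 tags, and Eomesa_peak5615, at 132 bp. The Smad2 peak beside Eomesa_peak5615 was annotated by the study to sox32, the Sox factor that specifies endoderm. That neighbouring Smad2 peak had 15 Smad2 and 8 input tags, fewer Smad2 and more input tags than the 22 and 2 of the uncalled region. At Eomesa_peak5397 and Eomesa_peak3761, as at Eomesa_peak5615, no higher Smad2 value was present within 500 bp outside the interval.

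Of the 95 regions, 15 lay near a Smad2 peak annotated to a gene of 4 lists (Nodal pathway, mesoderm, endoderm, and ectoderm and neural genes), for 12 genes in all. Among all 311 lone Eomesa peaks with a Smad2 peak within 10 kb there were 41 such peaks, for 24 genes. The share was only slightly higher in the regions, so nearness to a listed gene is not particular to them. The neighbours of Smad2 peaks named here were chosen after their values were seen. Near a Smad2 peak annotated to lft1, a secreted Nodal antagonist, Eomesa_peak3028 (chromosome 20, 35099942 to 35100346) had 36 Smad2, 17 Eomesa and 18 input tags (ratio 2.94) and Eomesa_peak3030 (35103371 to 35103699) had 35, 12 and 8 tags (ratio 6.04). The called Smad2 peak 261 bp from Eomesa_peak3030 reached 50 Smad2 tags, and Smad2 rose to 46 tags within 500 bp of that region. Near a Smad2 peak annotated to ndr1, a Nodal ligand, Eomesa_peak3207 (chromosome 21, 19838556 to 19838806) had 24 Smad2, 17 Eomesa and 4 input tags and Eomesa_peak3208 (19839555 to 19839757) had 22, 7 and 4 tags, with ratios of 7.55 and 6.94. Both regions had more Smad2 and fewer input tags than that called Smad2 peak, which had 15 of each and lay 7911 bp from the nearer region.

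Other regions of this kind lay near Smad2 peaks of germ layer genes, and the gene named is that of the Smad2 peak. Eomesa_peak1349, near wnt8a, a Wnt ligand that patterns ventrolateral mesoderm, had 17 Smad2, 16 Eomesa and 5 input tags, and Eomesa_peak1350 had 14, 11 and 6 tags. Eomesa_peak5909, near the mesodermal T-box gene tbx16, had 24 Smad2, 28 Eomesa and 14 input tags, and Eomesa_peak983, near the notochord homeobox gene flh, had 16, 23 and 13 tags. Eomesa_peak2313, near foxa3, a forkhead gene of the endoderm, had 15 Smad2, 8 Eomesa and 7 input tags. That region lay 151 bp from a called Smad2 peak, and Smad2 rose to 64 tags within 500 bp outside it. Eomesa_peak5192, near foxd3, a forkhead gene known for the neural crest, had 19 Smad2, 33 Eomesa and 10 input tags, and Eomesa_peak5812, near the vestigial-like cofactor gene vgll4l, had 26, 38 and 17 tags. Eomesa_peak2344, near stm, which encodes an otolith matrix protein, had 15 Smad2, 16 Eomesa and 16 input tags and a ratio of 1.42, so that Smad2 was hardly above input there. Eomesa_peak771 and Eomesa_peak1891, near foxh1 and lft2, also belong to the 15.

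**Figure D5:**
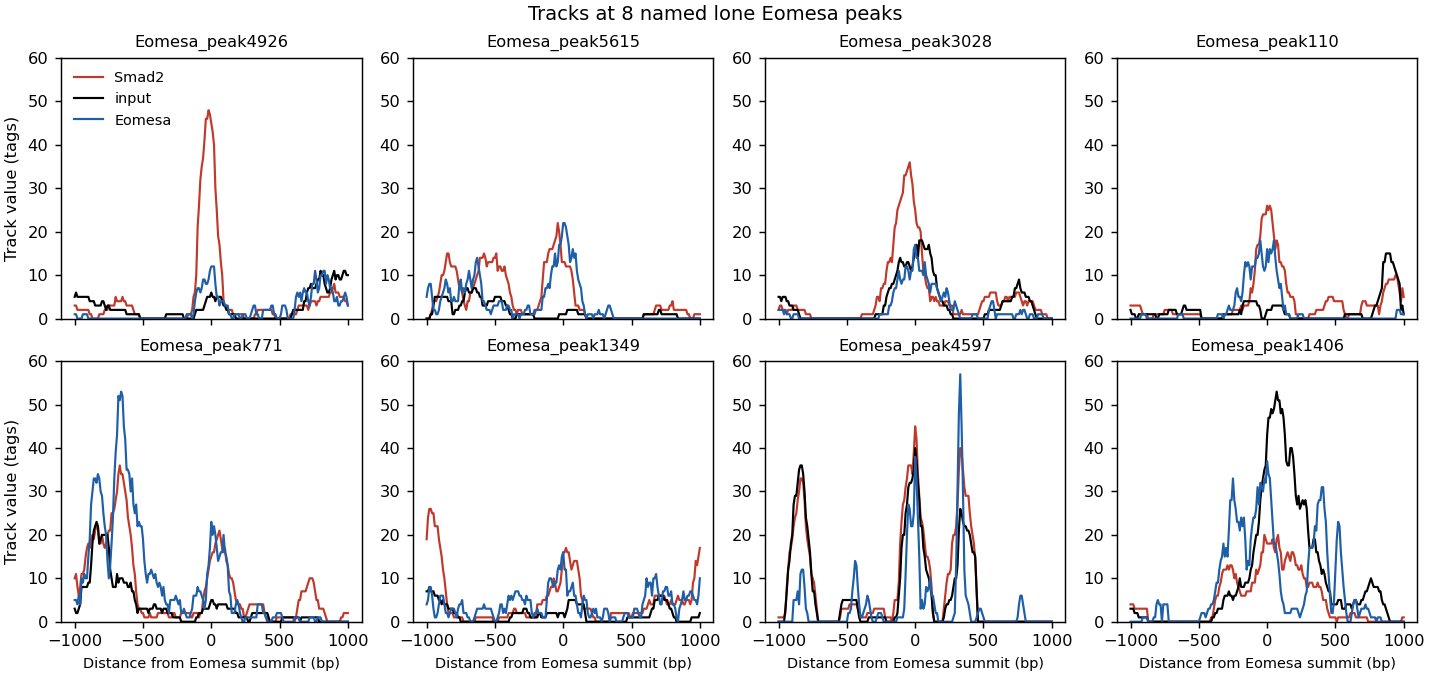
Smad2, input and Eomesa track values (vertical axes, tags) within 1 kb of the Eomesa summit (horizontal axes, bp) at 8 regions. Eomesa tags are shorter than Smad2 and input tags, so only Smad2 and input can be compared in height. Eomesa_peak4926 reaches 48 Smad2 and 6 input tags, Eomesa_peak4597 reaches 45 and 40, and Eomesa_peak1406 reaches 20 and 53.

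Genes were also annotated directly to the 244 regions, where a gene lay within 10 kb of the centre of the peak. Of these regions, 134 (54.9%) had such a gene, beside 854 of 1998 annotated peaks (42.7%) and 56.9% of the common peaks. Regions annotated to a listed gene numbered 2 for the Nodal pathway list, 4 for mesoderm, 0 for endoderm and 9 for ectoderm and neural genes. The same lists were met by 7, 22, 4 and 18 of all 1998 annotated peaks. The annotated peaks lay on chromosomes 1 and 10 to 17, so these counts leave out the regions on other chromosomes. The regions near the Smad2 peaks of sox32, foxa3, lft1 and ndr1, on chromosomes 7, 18, 20 and 21, are among those left out. The 0 for endoderm therefore does not describe the whole set. Since the annotation was used in part, these are counts without an overlap test.

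In the Nodal pathway, Eomesa_peak771 lay at foxh1 and had 21 Smad2, 23 Eomesa and 5 input tags (ratio 5.54, bare ratio 6.34 with a counting interval of 2.33 to 21.5). A called Smad2 peak of 36 tags was 438 bp away, and Smad2 reached 31 tags within 500 bp. Eomesa_peak1891 lay at lft2, a Nodal antagonist like lft1, and had 13 Smad2, 22 Eomesa and 8 input tags (ratio 2.35, bare ratio 2.45 with a counting interval of 0.943 to 6.83). Among mesoderm genes, Eomesa_peak987 at flh had 17 Smad2, 21 Eomesa and 12 input tags (ratio 2.09), and Eomesa_peak1339 at the caudal-type homeobox gene cdx4, known for posterior patterning, had 14, 26 and 21 tags (ratio 1.03). The other mesoderm regions were both at wnt8a, Eomesa_peak1349 (ratio 4.53) and Eomesa_peak1350 (ratio 3.24). The counting interval of the bare ratio lay above 1 at the foxh1 region and at both wnt8a regions, and held 1 at the lft2, flh and cdx4 regions. All these regions were chosen for a high Smad2 value, so the intervals are a description and do not sort the genes by a test.

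Among ectoderm and neural genes, the ratio differed between regions, also of the same gene. At otx1a, a homeobox gene of the anterior brain, Eomesa_peak239 had 18 Smad2, 16 Eomesa and 4 input tags (ratio 5.74) and Eomesa_peak240 had 15, 29 and 12 tags (ratio 1.86). The first of these regions passed a ratio of 2 and the second did not. The counting intervals of their bare ratios, 2.24 to 27.6 and 0.825 to 4.42, overlapped. Eomesa_peak1310 at her5, a basic helix-loop-helix gene of the midbrain and hindbrain boundary, had 16 Smad2, 33 Eomesa and 5 input tags (ratio 4.28). Eomesa_peak515 at gata2a, a GATA factor gene, had 13, 31 and 6 tags (ratio 3.02), and Eomesa_peak527 at bmp7a, which encodes a ventralising ligand, had 17, 38 and 8 tags (ratio 3.02). Eomesa_peak750 at cyp26a1, which encodes an enzyme that degrades retinoic acid, had 20, 27 and 16 tags (ratio 1.86), and Eomesa_peak1334 at the SoxB1 gene sox3 had 19, 18 and 17 tags (ratio 1.68).

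The regions were spread over the genome. There were 743 on chromosomes 1 to 25, where they made up between 7.69% (chromosome 22) and 15.8% (chromosome 14) of the Eomesa peaks. Another Eomesa peak lay within 10 kb of 298 regions (39.4%), beside 35.4% of all Eomesa peaks. A further region of the set lay within 10 kb of few: 682 regions had none, and the other 75 formed 35 groups linked by gaps of at most 10 kb, of which 5 held 3 regions. One group on chromosome 3 (61968449 to 61982100) had Smad2 heights of 28, 29 and 27 tags, all above the median of the set, without a Smad2 peak within 100 kb.

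Some regions repeated each other. By a definition chosen after the data were seen (equal width, heights within 1 tag in all tracks, and a correlation of at least 0.98 in both the Smad2 and the input track), 16 regions formed 8 pairs, each on 1 chromosome. Eomesa_peak4597 and Eomesa_peak4599 were such a pair, as were Eomesa_peak527 and Eomesa_peak528, the first of them the bmp7a region. The authors had kept reads that map to 1 or 2 places, so the values of a pair may come in part from the same reads, which was not tested. Equal width was required, so repeats of unequal width were not counted. Eomesa_peak1781 and Eomesa_peak1782, each of 14 Smad2 and 14 input tags and with the same listed Foxh1 site, were not counted as a pair. Without the 16 counted regions the median ratio remained at 2.11 and 417 of 741 regions (56.3%) had a ratio of 2 or more.

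Finally, all runs of consecutive positions with 13 or more Smad2 tags were counted in the genome, whether or not a peak was called there. Of 23007 runs, 1178 (5.12%) touched the 757 regions, 1058 (4.60%) touched a Smad2 peak, 295 (1.28%) touched another Eomesa peak and 20476 (89.0%) touched no peak. By number of runs, a height of 13 Smad2 tags was therefore reached far more often outside both peak lists than in the regions. The sequence outside the lists is far larger than that of the 757 regions, whose median width was 377 bp. These counts are therefore not rates, and by the rule every region touches such a run. The runs in the regions had a median input of 9 tags (95% interval 8 to 9), against 7 in Smad2 peaks (6 to 7) and 14 outside peaks (14 to 15). Their median ratio was 2.52, against 3.83 in Smad2 peaks and 1.51 outside peaks, and 67.8, 91.8 and 29.7% of the runs in these places had a ratio of 2 or more. At the same minimum of Smad2 tags, the runs in the regions thus had less input than those without a peak and more than those in Smad2 peaks. The authors called both Eomesa and Smad2 peaks against input, so this order is not independent of the calls. The runs also differed in length, with medians of 35 bp in the regions, 75 bp in Smad2 peaks and 25 bp outside peaks.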

How the data were processed

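ChIP-seq was carried out on 6 samples, with 2 reactions each for Smad2, Eomesa and input, grouped by their titles. Reads were mapped to Zv9 with Bowtie (named in the submitters' processing notes), keeping reads with up to 2 places, and peaks were called with MACS against paired input. Regions found in both reactions of a factor were kept by the authors as 1 list per factor, whose last column equalled the width. The deposited tracks hold the coverage signal of MACS, written in steps of 5 bp as the number of shifted tags, with no scaling for depth. Whether a track holds both reactions, and which input it is, is not given in the sources used here.

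Heights are the highest track values of an interval, and summits the midpoint of the positions at that value. The Smad2-to-input ratio used a pseudocount of 1 tag and the summed signal of each track. Coordinates are 1-based. Tag length was measured on isolated runs at 1 tag. Shares have Wilson intervals and medians exact order-statistic intervals, at 95%. Intervals cover counting and sampling of sites only.

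Peaks are not replicates and the rule used measured values, so no test was made. Members, lists and comparisons were chosen with earlier results of these data known. Bands of input and width, the values beside Smad2 peaks and the repeated regions were added after values were seen. Regions were named as the 5 of highest Smad2 height, the 5 of highest ratio, the 3 of highest input, the 3 nearest to a Smad2 peak, those annotated to a listed gene (some are not reported here), the 6 of highest ratio with a Foxh1 site and the 1 with most others within 10 kb. The computations were checked on simulated tracks. Python 3.11.15, numpy 2.4.6, pandas 2.3.3 and scipy 1.17.1 were used. A Zv9 genome was not used here, so no sequence was read by coordinates.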

Additional observations from a re-analysis of the deposited data

How the results depend on the processing

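The 7 results (number of regions, regions with a ratio of 2 or more, regions within 10 kb of a Smad2 peak, and the medians of ratio, input, summit distance and width) were recomputed under 13 settings. Of 66 values, 48 stayed within 1.5 times the count or within the 95% interval of the median, and 18 moved. A count, width, height or distance has no direction that could change, so reversal was not tested for these. With a minimum of 11 Smad2 tags there were 1218 regions, with a median ratio of 2.01 and width of 359 bp. With a minimum of 20 tags there were 155, of which 105 had a ratio of 2 or more (67.7%) and 38 a Smad2 peak within 10 kb (24.5%), with a median ratio of 2.44, input of 14 tags, summit distance of 42.5 bp and width of 438 bp. Without the Eomesa limit the median width was 397 bp. With input of at most 12 tags 432 regions were left, 377 of them with a ratio of 2 or more (87.3%) and 62 within 10 kb of a Smad2 peak. Their median ratio was 2.73, input 8 tags and width 351.5 bp, as their construction leaves out high input. Taking input at the Smad2 summit gave a median ratio of 3.02 and 587 regions of 2 or more (77.5%). Taking the highest input within 500 bp gave 1.91 and 343 (45.3%). Both counts stayed within 1.5 times that of the main setting, where the share was 56.4%. Whether most regions reached a ratio of 2 nevertheless depended on how input was taken. The settings that left out narrow peaks, unplaced sequences, regions within 500 bp of a Smad2 peak or repeated regions, and those that changed the pseudocount, the scaling or the height to a mean, moved none of the values they gave. No paired analysis was possible because each group has 1 track and each factor 1 list, with no values per reaction. Leaving out a reaction was not possible for the same reason. Heights of 13 tags limit the precision of each single region.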
